A study of Mus musculus with 8 samples.

Results

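The colonic epithelium takes up water and salt from the gut contents, and 6 genes of this transport were followed across the day: the water channel gene Aqp8, the carbonic anhydrase genes Car1, Car2 and Car4, the chloride channel gene Cftr and the sodium pump subunit gene Atp1b1. They were taken by gene symbol and not by a cut on their values, though with earlier results of these data known. They are 6 of the 14247 genes in the table. All 6 passed the filter of a mean of at least 10 normalised counts, as did 13503 genes in all. Car2 and Atp1b1 were highest at ZT12 in both libraries, at 1.88 and 1.78 times their ZT0 means, but neither passed the test across all genes. The other 4 genes differed as much between the 2 libraries of a time point as between time points, with Car1 ranging over 6.05-fold.

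The libraries came from WT mice, of a C57BL/6 background and aged 2 to 4 months according to the methods of the study, kept in a cycle of 12 h light and 12 h dark with lights on at zeitgeber time 0 (ZT0). The study used these libraries to look at daily rhythms in the healthy epithelium, of cell death genes above all. Crypts were scraped from the large intestine after EDTA treatment, so other mucosal cells could be carried along, and the stretch of colon behind each library is not given. Bulk RNA was sequenced in the light (ZT0, ZT6), when mice rest, and in the dark (ZT12, ZT18), when they are active, with 2 libraries at each of the 4 time points and 14722342 to 25159440 reads on genes per library. The labels do not say that the 2 libraries of a time point came from separate mice, so p-values measure the spread between these libraries, which may be technical. The methods speak of biological replicates, and a caption counts more mice per group than there are libraries in the table. Values are normalised counts, read counts divided by 1 size factor per library, and a count of 3 reads corresponds to 2.41 to 3.70 normalised counts. In bulk RNA, fewer cells of a type cannot be told apart from less RNA per cell.

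Carbonic anhydrases turn carbon dioxide and water into bicarbonate and protons. In surface colonocytes these ions feed the apical sodium/proton and chloride/bicarbonate exchangers that absorb salt, and water follows. The basolateral sodium pump keeps intracellular sodium low and so drives absorption, while CFTR, densest in crypt cells, lets chloride out for fluid secretion.

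The label of colonic epithelium was checked with 8 epithelial marker genes, which summed to 218179 to 283460 normalised counts per library, a range of 1.30-fold. Markers of other cells were far more uneven. The 5 measured smooth muscle genes summed to 3672 in ZT12 replicate 1 and to 6.95 to 229 in the other libraries, and the 6 fibroblast genes reached 2329 in ZT12 replicate 1. Sums of 5 B and plasma cell genes and of 5 myeloid genes were highest in ZT0 replicate 2, at 1407 and 1297. The ZT12 against ZT0 differences are therefore also given without these 2 libraries. The share of counts from the mitochondrial genome was 6.68% to 22.2%, with the ZT12 libraries lowest.

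The genes lie on 5 chromosomes of GRCm38 and all are annotated as protein coding in GENCODE M21. Aqp8 (ENSMUSG00000030762) is at chr7:123462291-123468004 on the plus strand and Car4 at chr11:84957786-84966044 on the plus strand. Car1 at chr3:14766216-14808368 on the minus strand and Car2 at chr3:14886273-14900770 on the plus strand are neighbours. Cftr is at chr6:18170687-18322768 on the plus strand and Atp1b1 at chr1:164437109-164458355 on the minus strand. Exons of Atp1b1 share 575 bases with Nme7 on the opposite strand, and the counting of strand is not given in the sources used here. Nme7 had 98.3 to 149 normalised counts per library, against at least 16254 for Atp1b1. Exons of Cftr share 129 bases with the antisense gene Gm15592, so Cftr counts could include reads from it.

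Promoter windows of 300 bases, from 250 before to 50 after the transcript start in RefSeq for GRCm38.p6, were matched for 4 of the 6 genes, Aqp8, Car4, Cftr and Atp1b1. The windows of Aqp8 and Car4 are shown because these were the 2 genes that varied together from library to library. Capitals mark motif matches, an E-box (CACGTG) in Aqp8 at chr7:123462044-123462343 and the letters TATAAA in Car4 at chr11:84957504-84957803, both windows read on the plus strand.
Aqp8: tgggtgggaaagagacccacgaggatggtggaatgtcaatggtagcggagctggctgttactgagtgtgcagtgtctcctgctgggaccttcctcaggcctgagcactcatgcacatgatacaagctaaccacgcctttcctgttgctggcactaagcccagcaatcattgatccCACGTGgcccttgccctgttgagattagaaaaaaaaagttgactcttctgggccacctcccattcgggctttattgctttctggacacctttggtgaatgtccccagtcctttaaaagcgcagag
Car4: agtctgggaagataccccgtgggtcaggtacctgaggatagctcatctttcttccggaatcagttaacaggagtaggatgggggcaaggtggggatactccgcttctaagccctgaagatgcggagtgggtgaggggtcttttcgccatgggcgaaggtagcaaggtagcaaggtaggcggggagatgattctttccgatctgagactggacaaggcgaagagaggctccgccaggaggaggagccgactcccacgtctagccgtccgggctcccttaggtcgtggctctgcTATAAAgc
The E-box, a sequence bound by the clock factors BMAL1 and CLOCK among others, begins 75 bases before the Aqp8 start and was found in 1 of the 4 windows. It is present in 7.15% of all 32817 windows of this length. TATAAA lies 42 bases after the Car4 start, inside the transcript, and is present in 13.6% of windows. None of the 4 windows held a D-box (TTATGTAA, 0.935% of windows), a retinoid-related orphan element (2.58%), a palindromic glucocorticoid element (0.0488%) or a CDX motif (TTTATG, 11.9%), each searched on both strands. These matches describe the letters of the windows and not bound sites.

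Per kilobase of exon, which allows levels to be compared between genes, Car1 was the highest of the 6 with a mean of 79868 normalised counts per kb. Car4 followed with 14561 and Aqp8 with 13964, then Atp1b1 with 7962, Car2 with 6967 and Cftr with 252. Car1 was above Car4, and Car2 above Cftr, in 8 of 8 libraries without overlap of their ranges. The neighbours between them were not separated, since Car4 was above Aqp8 in 6 of 8 libraries, Aqp8 above Atp1b1 in 6 of 8 and Atp1b1 above Car2 in 5 of 8. By mean normalised count, not divided by length, Car1 ranked 10 among the 13503 genes tested and Cftr 1739, with the other 4 genes at ranks 40 to 80. The 6 genes together took 0.616% to 1.35% of all counts of a library, and Car1 alone 0.136% to 0.922%.

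**Figure D1:**
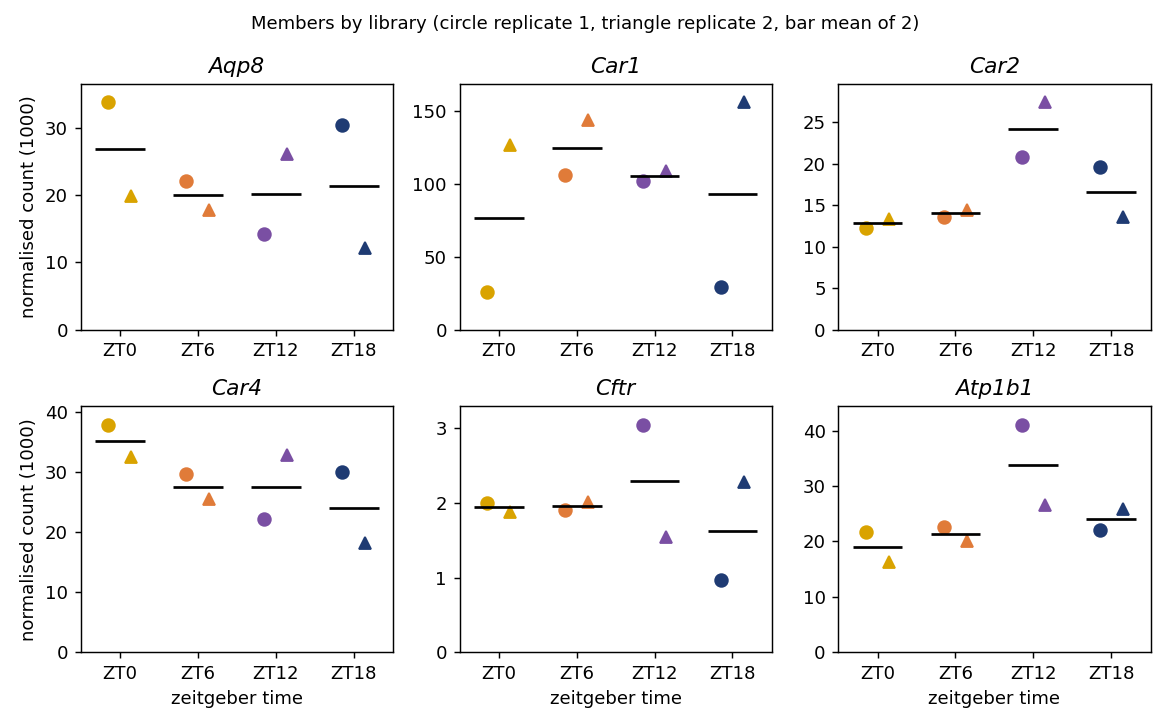
Normalised counts, in units of 1000, of Aqp8, Car1, Car2, Car4, Cftr and Atp1b1 (1 panel each) at ZT0, ZT6, ZT12 and ZT18, with circles for replicate 1, triangles for replicate 2 and black bars for the mean of the 2 libraries. Both ZT12 libraries lie above the other 6 in the Car2 and Atp1b1 panels, while Car1 is at 25770.4 and 29319.7 in 1 library each of ZT0 and ZT18.

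Car2, the cytosolic carbonic anhydrase of high activity, had 12297 and 13349 normalised counts at ZT0 and 13555 and 14445 at ZT6. It had 20788 and 27441 at ZT12, then 19532 and 13589 at ZT18. Both ZT12 libraries were above the other 6. Across all genes tested, 6.45% had both ZT12 libraries above the other 6, and 2 of the 6 transport genes did, Car2 and Atp1b1. The Car2 mean was 12823 ± 744 at ZT0 (SD, n = 2) and 24114 ± 4704 at ZT12 (SD, n = 2). The log2 difference of ZT12 against ZT0 was 0.90 (SE 0.24, 95% interval 0.35 to 1.45), with an unadjusted p of 0.00499 and an adjusted p of 0.351 in the limma fit of all 8 libraries, so it did not pass. DESeq2 on the recovered reads gave Car2 an adjusted p of 0.0148 for this difference, in which it called 0.896% of all genes, whereas edgeR gave 0.386. Leaving out 1 library at a time, the Car2 difference ran from 0.698 to 1.099, and it was 1.16 (limma adjusted p 1.000) without ZT0 replicate 2 and ZT12 replicate 1.

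The other Car2 comparisons with ZT12 use the same 2 libraries and are no separate support. ZT12 was above ZT6 by 0.77 on the log2 scale (limma unadjusted p 0.0114, adjusted p 0.705). ZT18 against ZT12 was -0.55 (limma unadjusted p 0.0499, adjusted p 0.554), with ZT18 replicate 1 close below the ZT12 libraries and replicate 2 at the ZT6 level. A 24 h cosine curve had an amplitude of 0.46 log2 units around its mean and a peak at 12.9 h (limma adjusted p 0.465). Of the sum of squares of the 8 log2 values, 80.5% lay between time points, the highest share of the 6 genes. Part of such a share arises without any effect of time, since 4 means are fitted to 8 libraries. The F-test over time points did not pass for Car2 (limma adjusted p 0.637). Since CAR1 and CAR2 are also enzymes of red blood cells, erythroid genes were examined. Only 3 of 7 listed erythroid genes are in the table, and their sum ran from 4.02 in ZT18 replicate 2 to 302 in ZT18 replicate 1. It was 86.4 and 37.3 at ZT0 and 77.7 and 55.3 at ZT12, against Car2 counts of 12297 or more in all libraries. Their part in the Car2 and Car1 levels was not tested.

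Atp1b1, the β1 subunit that carries the sodium pump to the basolateral membrane, had 21679 and 16254 normalised counts at ZT0 and 22619.9 and 20100.0 at ZT6. It had 41093 and 26502 at ZT12 and 22102 and 25888 at ZT18. ZT12 replicate 1 stood well above all other libraries, and ZT12 replicate 2 was close to ZT18 replicate 2. The ZT12 mean of 33798 ± 10318 was above the ZT0 mean of 18967 ± 3836 (SD, n = 2 each), a log2 difference of 0.81 (SE 0.28, 95% interval 0.18 to 1.45) with a limma adjusted p of 0.416. Without ZT12 replicate 1, the library with the smooth muscle genes, it was 0.50 (limma adjusted p 1.000), and without ZT0 replicate 2 as well it was 0.29. The part of the smooth muscle and fibroblast genes in the Atp1b1 level was not tested. The cosine curve of Atp1b1 had an amplitude of 0.42 and a peak at 12.8 h (limma adjusted p 0.520).

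Aqp8, a water channel that also passes hydrogen peroxide, had 33885 and 19803 normalised counts at ZT0 and 22059 and 17863 at ZT6. It had 14165 and 26175 at ZT12, then 30461 and 12205 at ZT18. The highest and the lowest library of the day were thus not at fixed times, and the 2 ZT18 libraries alone differed 2.50-fold. Only 13.8% of the log2 sum of squares lay between time points. ZT12 against ZT0 was -0.43 (SE 0.46, 95% interval -1.48 to 0.62) and reversed to 0.015 without ZT12 replicate 1, while without ZT0 replicate 2 as well it was -0.37.

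Car4, the membrane-anchored anhydrase of the apical surface, had 37957 and 32606 normalised counts at ZT0 and 29748 and 25469.9 at ZT6. It had 22234 and 32826 at ZT12 and 30024 and 18143 at ZT18. Both ZT0 libraries were above both ZT6 and both ZT18 libraries, but ZT12 replicate 2 reached the ZT0 range. ZT18 against ZT0 was -0.59 (SE 0.31, 95% interval -1.30 to 0.11), with an adjusted p of 0.999 in limma. Without ZT0 replicate 2 it was -0.70 (limma adjusted p 0.841). ZT12 against ZT0 was -0.21 without both ZT0 replicate 2 and ZT12 replicate 1. Libraries of ZT18 and ZT0 did not overlap for 27.5% of all genes tested, and those of ZT6 and ZT0 for 37.6%.

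Car4 followed Aqp8. In all 4 time points the library with more Aqp8 also had more Car4. Over the 8 libraries, Pearson's r of the log2 values was 0.905 (exact permutation p 0.00181, adjusted p 0.0272 over all 15 gene pairs, the 5 with Car1 included) and Spearman's rho was 0.881 (exact permutation p 0.00724, adjusted p 0.109), so the pair passed by r and not by rank. Without ZT0 replicate 1 and ZT18 replicate 2, the libraries farthest from the Aqp8 median, r was 0.768. The pair no longer passed adjustment when any 1 of 6 libraries was left out, all but ZT0 replicate 2 and ZT18 replicate 1, although r remained at 0.850 or more. It did not pass under 2 other scalings either. Without both ZT0 replicate 2 and ZT12 replicate 1, r was 0.952. Deviations from the time point means gave r of 0.973, but the 2 deviations of a time point mirror each other. Each time point thus adds only a single difference, the one already described. By this measure r was also -0.976 for Car2 and Cftr and -0.942 for Car4 and Cftr. None of the 9 other pairs without Car1 passed. Aqp8 and Cftr had an r of -0.685 (exact permutation p 0.0527, adjusted p 0.264).

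**Figure D2:**
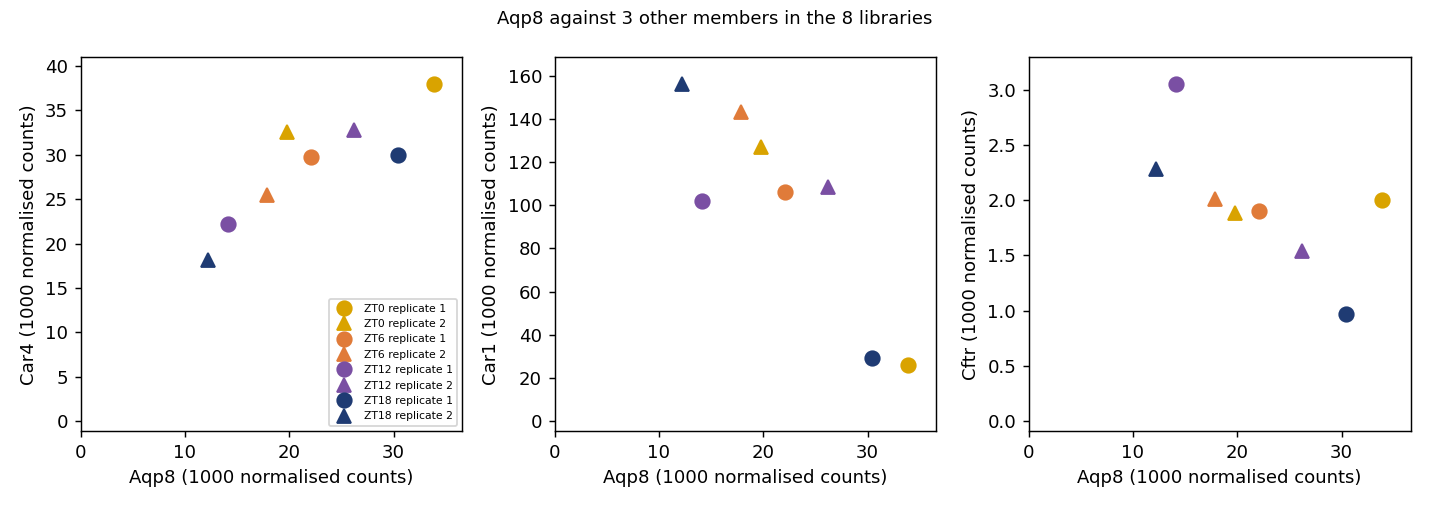
Car4, Car1 and Cftr (y axes of the 3 panels) against Aqp8 (x axes), all in units of 1000 normalised counts, with 1 point per library, colours for time points, circles for replicate 1 and triangles for replicate 2. Car4 climbs with Aqp8, from 18143 to 37957, whereas the 2 libraries richest in Aqp8 are the 2 lowest in Car1.

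Car1, a cytosolic anhydrase abundant in the colon, had 25770.4 and 126760.2 normalised counts at ZT0 and 105999 and 143331 at ZT6. It had 101729 and 108472 at ZT12 and 29319.7 and 156024 at ZT18. ZT0 replicate 1 and ZT18 replicate 1 were low and the other 6 libraries high, with nothing between 29319.7 and 101729. The 2 libraries of a time point differed 4.92-fold at ZT0 and 5.32-fold at ZT18, but 1.35-fold at ZT6 and 1.07-fold at ZT12. The SD within time points was 1.19 log2 units, larger than that of 99.5% of the 3558 genes with a mean of at least 1000, whose median was 0.198. Aqp8 at 0.63 and Cftr at 0.56 were also above 97.6% and 96.4% of these genes, while Car2 at 0.24 was above 64.8%.

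No time of day could be read from Car1. ZT12 against ZT0 was 0.88 (SE 0.85, 95% interval -1.03 to 2.79), and without ZT0 replicate 1 it turned to -0.27. It was 2.07 without ZT0 replicate 2 and ZT12 replicate 1. Because the libraries fell into 2 clusters, correlations of Car1 with the other 5 genes are given only within the 6 high libraries. None passed there, with r between -0.57 for Car2 and -0.05 for Cftr (exact permutation p 0.242 to 0.929, adjusted p 0.464 to 0.929 over 5 pairs).

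The 2 libraries low in Car1 were at or near 0 for Hoxb8 and Slc51a. Genes whose log2 values were most like Car1 over the 8 libraries, among 10024 genes compared, were Prnp (r 0.981), Hoxb8 (r 0.981) and Slc51a (r 0.980). Hoxb8, a homeobox gene of body position, had 0 normalised counts in ZT0 replicate 1 and in ZT18 replicate 1, where a count of 0 allows up to 2.98 and 2.56. It had 72.6 to 398 in the other 6 libraries. Slc51a, a subunit of the basolateral bile acid transporter, had 0 and 5.13 normalised counts in the 2 low libraries and 646 to 2332 in the others. These correlations describe 8 libraries that share time points and dissection, and they rest mainly on the 2 low libraries. Within the 6 high libraries r with Car1 was 0.75 for Prnp, 0.57 for Hoxb8 and 0.67 for Slc51a.

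The posterior homeobox genes of the hindgut, a list of position along the gut, differed in how they ranked the 2 low libraries of Car1. The 6 measured genes summed to 8761 normalised counts in ZT0 replicate 1 and 9421 in ZT18 replicate 1, but to 9795 in ZT12 replicate 2, where Car1 was high. The sum was lowest in ZT18 replicate 2, at 3416, and lay between 4565 and 6058 in the other 4 libraries. Hoxb13, which made up most of the sum, had 6405 and 3235 normalised counts at ZT0 and 3869.8 and 4086 in the ZT6 libraries. It had 3538 and 5682 at ZT12, and ZT18 gave 6927 and 2508. Its 2 highest libraries, ZT18 replicate 1 and ZT0 replicate 1, were thus the 2 low in Car1. For 3 of the 6 genes, Hoxb13, Hoxd11 and Hoxd13, the 3 highest libraries were those of Aqp8, and for Hoxa13, Hoxd10 and Hoxd12 they were not. Hoxd12 was at 12.8 in ZT18 replicate 1, where Aqp8 was second highest, and Hoxa13 at 1087 in ZT6 replicate 1. The part of the stretch of colon sampled in the Aqp8, Car4 and Car1 levels was not tested.

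**Figure D3:**
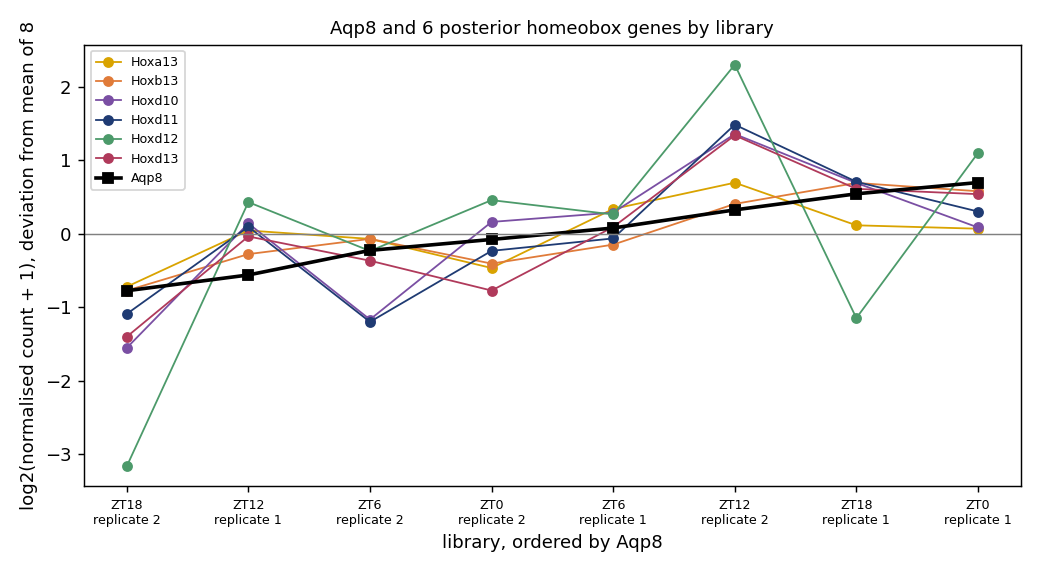
Deviation of log2(normalised count + 1) from the mean of the 8 libraries (y axis) for Aqp8 (black squares) and 6 posterior homeobox genes (coloured circles), with the 8 libraries on the x axis in order of their Aqp8 level. ZT12 replicate 2 is the highest library for 5 of the 6 genes and ZT18 replicate 2 the lowest for 5, while Hoxd12 is low in ZT18 replicate 1, where Aqp8 is high.

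Cftr, the chloride channel gated by cyclic AMP signalling, had 2003 and 1880.4 normalised counts at ZT0 and 1906 and 2008 at ZT6. It had 3049.5 and 1544 at ZT12 and 971 and 2279 at ZT18. The 4 libraries of the resting phase lay within 1880.4 to 2008, while the 2 libraries of ZT12 differed 1.98-fold and those of ZT18 2.35-fold. ZT12 against ZT0 was 0.16 (SE 0.40, 95% interval -0.74 to 1.06) and turned to -0.33 without ZT12 replicate 1, which was again the highest library, and to -0.38 without ZT0 replicate 2 as well. Crypt base and cycling cell markers, 13 genes, summed to 8713 to 13787 normalised counts, and 10 surface colonocyte markers to 374151 to 647771.

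Over the whole set, no gene passed the limma test with Benjamini-Hochberg adjustment in the cosine fit, the F-test over time points or any of the 6 contrasts. At an unadjusted p under 0.05, limma counted 2 of 6 in the cosine fit, where 9.15% of all genes were below it, and 2 of 6 in ZT12 against ZT0, where 9.96% were. It counted 1 each in the F-test, in ZT12 against ZT6 and in ZT18 against ZT12, where 7.03%, 6.78% and 9.03% of all genes were below it. It counted 0 in ZT18 against ZT6, ZT6 against ZT0 and ZT18 against ZT0, with 6.71%, 4.13% and 5.02% of all genes. DESeq2 called Car2 alone in the cosine fit, the F-test and ZT12 against ZT0, where it called 1.36%, 1.61% and 0.896% of all genes. edgeR called none of the 6 in these, and 0.0889%, 0.0741% and 0.037% of all genes. Calls by limma were also few, since it called 0.118% of genes in the cosine fit, 0.0889% in the F-test and 0.0667% in ZT12 against ZT0. It called 0.0444% in ZT18 against ZT6 and in ZT6 against ZT0, 0.0296% in ZT18 against ZT12 and 0% in the remaining contrasts. Libraries of ZT12 and ZT0 did not overlap for Car2 and Atp1b1, 2 of 6 genes, against 41.1% of all genes. In the exact rank test of rhythm, Car2 reached the smallest p that the design allows, 0.0190, and Atp1b1 0.0571, both with an adjusted p of 0.877. That was the lowest adjusted p of any gene in the rank test, so 0% of all genes passed it. Before adjustment, 2.06% of all genes were under 0.05.

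**Figure D4:**
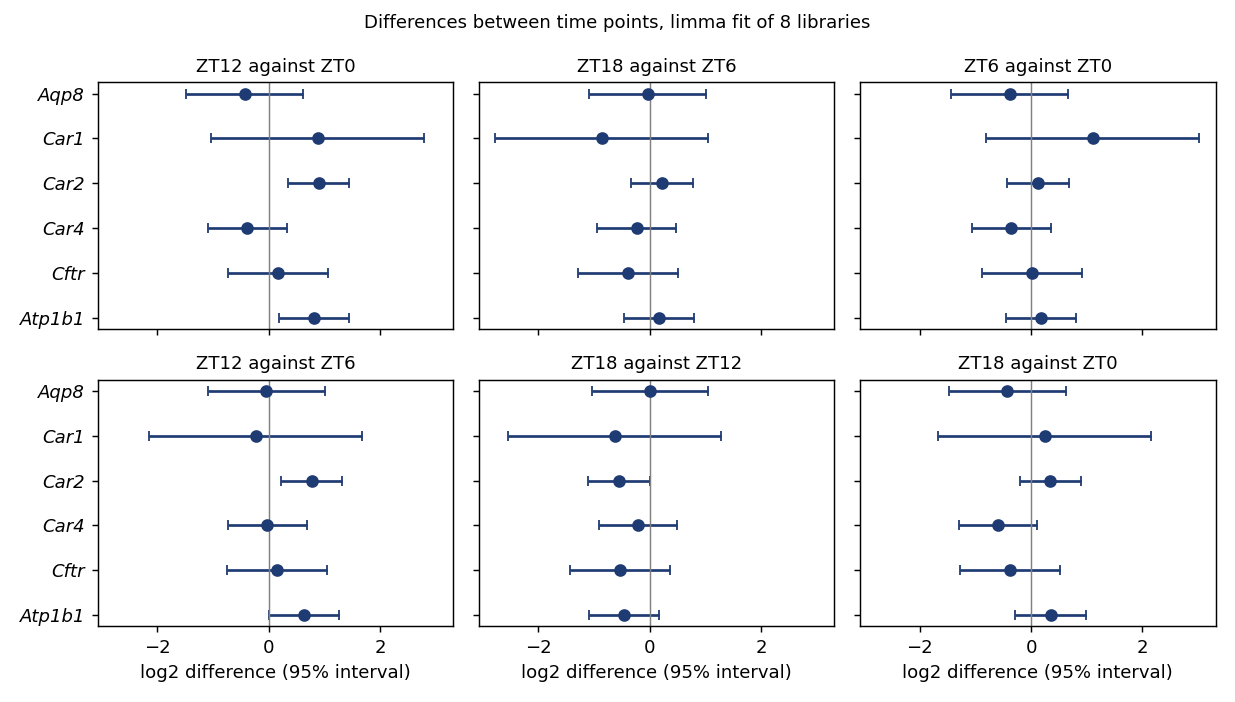
Log2 differences (points) with 95% intervals (bars) from the limma fit of 8 libraries for the 6 genes in the 6 contrasts between time points, 1 panel each. Car2 and Atp1b1 lie to the right of 0 in ZT12 against ZT0, by 0.90 and 0.81, and the Car1 intervals are the widest.

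The wider transport machinery was taken from 7 lists of 77 genes, of which 60 are in the table and 58 were tested. In ZT12 against ZT0, 45 of the 58 were higher at ZT12 and their median log2 difference was 0.44, whereas 51.4% of all genes were higher and their median was 0.01. No gene of the lists passed the limma test in that contrast. At an unadjusted p under 0.05, 9 of the 58 were higher and 1 lower, where 9.96% of all genes were below it in either direction. DESeq2 called 4 of the 58 and 0.896% of all genes, and edgeR 0. Without ZT12 replicate 1 the median was 0.28, and it was 0.33 when ZT0 replicate 2 was left out as well. The count of 45 was not repeated without these libraries. By median log2 deviation of the 58 genes, ZT12 replicate 1 stood at 0.317, and ZT12 replicate 2 at 0.076 beside 0.078 in ZT18 replicate 2. The ZT0 libraries were at -0.203 and -0.148. For the 6 genes themselves the median was 0.49, with Car1, Car2 and Atp1b1 near 0.9 and Aqp8 and Car4 below 0. That median rests on single libraries, since it was 0.083 without ZT0 replicate 1, on which the Car1 value depends, 0.26 without ZT12 replicate 1 and 0.67 without ZT12 replicate 2. It was 0.040 with ZT0 replicate 2 and ZT12 replicate 1 both left out.

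Sodium absorption held the gene of the lists nearest to a limma call in ZT12 against ZT0. Slc9a3, the apical sodium/proton exchanger NHE3, had 4386 and 4351 normalised counts at ZT0 and 7773 and 8096 in the ZT6 libraries. It had 12298 and 9862 at ZT12, and ZT18 gave 9387 and 7955. All 6 later libraries were above both ZT0 libraries, an order whose share among all genes was not counted. ZT12 against ZT0 was 1.33 (SE 0.19, limma adjusted p 0.0594). It was 1.17 (limma adjusted p 0.643) without ZT0 replicate 2 and ZT12 replicate 1. Sgk1, the kinase that keeps epithelial sodium channels at the membrane, was the only gene of the lists called by limma in the cosine fit, with an amplitude of 0.86, a peak at 17.0 h and an adjusted p of 0.0493. Its lowest counts were 2622 and 2832 in the ZT6 libraries, and its highest 7944 and 9421 in those of ZT18. ZT0 gave 3759.5 and 4285, and ZT12 gave 4265 and 6942. This call was lost under 7 other ways of processing or testing, and when any 1 library other than ZT12 replicate 1 was left out. Scnn1g, the γ subunit of the sodium channel, had the largest amplitude of its list, 1.12, at 19.6 to 214 normalised counts (limma adjusted p 0.490), and the exchanger scaffold Slc9a3r1 had the highest mean, 9285.

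Among anion exchangers, Slc26a3, which swaps luminal chloride for bicarbonate, had the highest mean, 30834, and Slc26a2, a sulfate carrier, the largest amplitude, 0.39. All 6 genes of that list were higher at ZT12 than at ZT0 and none passed, with a median difference of 0.46. In chloride secretion 8 of 11 were higher, led in level by the goblet cell gene Clca1, which had 27206 to 121615 normalised counts, and in amplitude by Clca4a (0.62, peak at 18.9 h). For the other water channels, Aqp4 had the highest mean, 5833, and Aqp11 the largest amplitude, 0.37, and all 3 measured were higher at ZT12. Of the other anhydrases 5 of 8 were higher at ZT12, with Car9 the most abundant at a mean of 1118 and Car8 the largest in amplitude, 0.53, at 159 to 1459 normalised counts. The sodium pump list had 5 of 8 higher, with Fxyd6 largest in amplitude at 1.04 but at only 3.70 to 43.1 normalised counts. In secretagogue signalling 7 of 9 were higher, while the guanylin gene Guca2a, the most abundant, had a difference of -0.05 and Adora2b, largest in amplitude, was at 0 in 1 library.

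**Figure D5:**
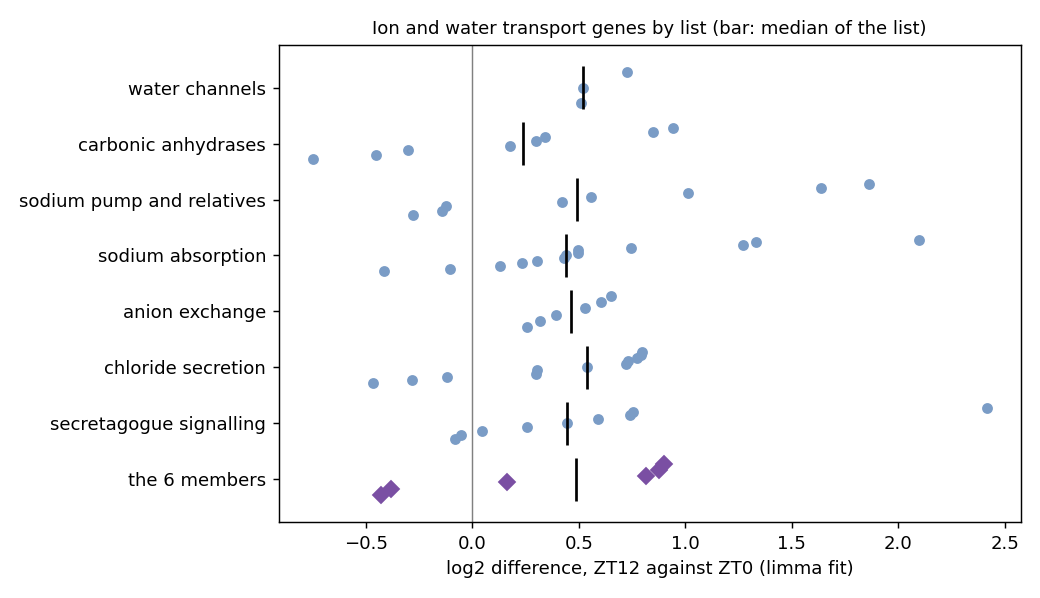
Log2 differences of ZT12 against ZT0 from the limma fit for 58 transport genes in 7 lists (blue points) and for the 6 genes of the report (purple diamonds), with a black bar at each median. Medians of the 7 lists lie between 0.24 and 0.54, and the 6 genes split into 3 near 0.9, 1 at 0.16 and 2 below 0.

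Genes most like the others by Pearson's r over the 8 libraries were Ly6g (0.980), Slc8b1 (0.970) and Abracl (0.961) for Aqp8. For Car4 they were Bzw2 (0.965), Tango2 (0.948) and Chd7 (0.938), and for Car2 Wdfy2 (0.985), Zbtb7a (0.966) and Ppia (0.952). Cftr was nearest to Yeats2 (0.982), Nrp2 (0.981) and Pik3r4 (0.970), and Atp1b1 to Lmbrd2 (0.983), Nhlrc3 (0.979) and Nsf (0.979). With 8 libraries and 10024 genes compared, such values describe these libraries.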

How the data were processed

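RNA-seq of colonic crypts of WT mice gave 8 libraries, 2 at each of 4 time points. According to the methods and the labels, the authors aligned reads with STAR to GRCm38 and normalised them with DESeq2. The counter, the annotation and strand use are not given in the sources used here, and the labels and the methods name different library kits. The deposited table holds a signal per gene and library, read counts divided by a size factor, and genes below a mean of 6.55 are absent. Its deposited log2 fold changes, score columns (standard error and statistic) and p-values are the authors' own comparison and were not used.

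Every value was a whole multiple of 1 step per library (100% within 0.01 reads), from which reads were recovered for edgeR 4.0.16 and DESeq2 1.42.0. The main test was limma 3.58.1 (R 4.3.3) on log2(normalised count + 1) values, its variance prior following mean expression, in 1 fit of all 8 libraries over 13503 genes with a mean of at least 10. It comprised a cosine of 24 h, an F-test and 6 contrasts, with Benjamini-Hochberg adjustment over all genes, called at 0.05. Fold changes are on that scale. The rank test followed the JTK test of the study. Correlations used two-sided exact permutation. Scripts were tested on simulated data. Correlations of same-numbered deviations between time points ran from -0.29 to 0.22. With 2 libraries per time point they cannot settle whether replicate numbers pair the libraries. Alternatives were other scalings, pseudocounts, filters and tools, a replicate block, and each library left out. Leaving out both ZT0 replicate 2 and ZT12 replicate 1 was chosen after seeing the data.

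The 6 genes and all lists were chosen with earlier results of these data known. Genes named are those 6, transport genes called in a fit, per list the highest in mean and in amplitude (1 of these is not reported here), and for each of the 6 the 3 most similar genes with a mean of at least 100.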

Additional observations from a re-analysis of the deposited data

How the results depend on the processing

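No limma or edgeR setting called any of the 6 genes. Over all genes, limma, edgeR and DESeq2 called 16, 12 and 184 genes in the cosine fit and 9, 5 and 121 in ZT12 against ZT0. DESeq2 moved the count from 0 to 1 (Car2) in the cosine fit, the F-test and ZT12 against ZT0, with log2 values of 0.47 for the amplitude and 0.91 for the contrast. Among the 8 reversed results, all of differences that had not passed, Aqp8 ZT12 against ZT0 was 0.015 without ZT12 replicate 1 (range over single libraries left out -0.87 to 0.015) and Car1 -0.27 without ZT0 replicate 1 (-0.27 to 2.03). Car2 ZT18 against ZT6 was -0.042 without ZT18 replicate 1 and up to 0.48 without 1 other library. The Cftr cosine had an amplitude of 0.13 with another peak, 15.4 h, without ZT18 replicate 1 (0.13 to 0.40 over single libraries). Cftr ZT12 against ZT0 was -0.33 without ZT12 replicate 1 (-0.33 to 0.65) and -0.38 with ZT0 replicate 2 left out too. Atp1b1 ZT6 against ZT0 was -0.024 without ZT0 replicate 2, alone or with ZT12 replicate 1, and up to 0.39 without 1 other library. The Atp1b1 ZT12 against ZT0 difference ran from 0.50 to 1.13 as single libraries were left out. The cause of these moves was not tested.

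The 1 correlated pair, Aqp8 and Car4, dropped to 0 pairs past adjustment with quantile normalisation (r 0.767) and with non-mitochondrial reads as the scale (r 0.879), and leaving out 1 library gave 0 to 1 pairs with r of 0.850 or more. The exact p of the Car2 rank test was 0.0571 and 0.152 under those 2 scalings. With libraries left out, the smallest exact p possible for a peak at ZT12 is itself larger. Car2 was at that smallest value in each such setting, so these settings cannot show whether its order weakened. In the transport lists, the 1 cosine call (Sgk1) became 0 with TMM, quantile normalisation, non-mitochondrial scaling, a pseudocount of 0.1, a mean of at least 50, no mean-variance trend and edgeR, became 4 with DESeq2, and was 0 to 1 with 1 library left out. DESeq2 made 4 calls in ZT12 against ZT0 in place of 0, and leaving out 1 library gave 0 to 1 (Slc9a3, without either ZT18 library). The median difference of 0.44 ran from 0.28 to 0.48 with 1 library left out and was 0.33 with both doubted libraries left out.

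With the replicate number as a block, a number that the libraries only share, 0 of the 6 genes and 1 transport gene in the cosine fit were called, and Car2 ZT12 against ZT0 stayed at 0.90 (limma adjusted p 0.464). It changed no call of these genes. The lowest value of the 6 genes was 971 normalised counts, and 2 libraries per time point were measured.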

Other observations

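Mineralocorticoid and secretagogue receptor genes of the fixed lists were named because DESeq2 called them. DESeq2 called 1.36% of all genes in the cosine fit, 1.61% in the F-test and 0.896% in ZT12 against ZT0. The order of their libraries comes from the same counts and is no separate support. Nr3c2, the mineralocorticoid receptor, had 2162 and 1949 normalised counts at ZT0 and 3473 and 3213 in the ZT6 libraries. It had 3674 and 3221 at ZT12, and ZT18 gave 2193 and 2207. All 4 libraries of ZT6 and ZT12 were above the other 4, an order whose share among all genes was not counted. Of its parts, libraries of ZT12 and ZT0 did not overlap for 41.1% of all genes, and those of ZT6 and ZT0 for 37.6%. For the cosine, limma gave an adjusted p of 0.155 with a peak at 9.4 h. Vipr1, a receptor for vasoactive intestinal peptide, had 4633 and 4448 normalised counts at ZT0 and 4982 and 4865 in the ZT6 libraries. It had 7624 and 7697 at ZT12, and ZT18 gave 5259.9 and 3854. Both ZT12 libraries were the highest 2, as for 6.45% of all genes tested. ZT12 against ZT0 was 0.75 (limma adjusted p 0.343), or 0.73 without ZT0 replicate 2 and ZT12 replicate 1.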
